A study of Drosophila melanogaster with 3 samples.

Results

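The loci of the primary pair-rule genes even-skipped (eve), hairy (h) and runt (run) were examined for binding of Zelda (ZLD) as the zygotic genome is activated. The peaks were those of the 3 deposited lists whose interval midpoint lay in a window of the dm3 assembly around each gene, 24 kb long at eve on 2R, 40 kb at h on 3L and 60 kb at run on X. Midpoints within 150 bp of each other were joined into 1 site, which gave 62 sites at these genes (21 at eve, 18 at h and 23 at run) of 16200 sites in the whole series. ZLD was immunoprecipitated from wild-type Oregon R embryos that had been sorted by hand, with 3.7 µg of chromatin at mitotic cycles 8 to 9 (cycle 8), 6.6 µg at mitotic cycles 13 to 14 (cycle 13) and 6 µg in late mitotic cycle 14. Each stage was 1 library of pooled whole embryos, so that all nuclei, in and out of a stripe, were averaged.

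Pair-rule genes are expressed as stripes along the blastoderm embryo and divide it into segments. eve encodes a homeodomain repressor, h a basic helix-loop-helix repressor and run a Runt-domain transcription factor, and they are called primary because maternal and gap factors set their early stripes through separate stripe enhancers. At eve such enhancers lie on both sides of a short transcription unit. ZLD is a maternally supplied zinc-finger protein that binds CAGGTAG and related motifs and is required for early zygotic transcription.

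Coverage is the number of reads, extended to 150 bp, over the centre of a site, scaled to 10000000 reads per library. Coverages given in threes follow the stages from cycle 8 through cycle 13 to late cycle 14, and the log2 ratio beside them sets the last of these stages over the first. The libraries held 13496488, 18870755 and 17481411 mapped reads, of which 23.4%, 50.9% and 41.0% had distinct positions and strands. Ranges in parentheses are exact Poisson intervals at 95% for coverages and conditional binomial intervals for log2 ratios. They cover counting error only and are too narrow, since copies of 1 molecule are counted as separate reads. As each stage had a single library, no difference between stages was tested, sizes alone are given, and stage cannot be told apart from library. The words rose and fell are kept for changes of 2-fold or more.

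ZLD already occupied all 3 loci at cycle 8. In the lists, the eve window held 15, 17 and 19 peaks, the h window 16, 15 and 14, and the run window 13, 21 and 17. Of the 62 sites, 71.0% were in the cycle 8 list, 85.5% in the cycle 13 list and 80.6% in the late cycle 14 list, against 70.2%, 64.6% and 58.2% of all sites of the series. Only 6 (9.68%) were found in the cycle 8 list alone, against 26.2% in the series. The eve window held 8.75 sites per 10 kb, the h window 4.5 and the run window 3.83, whereas the chromosome arms held 1.31. Outside the sites, median coverage in the eve window was 10.4, 10.1 and 9.15, above the 4.45, 3.71 and 3.43 of the arms, whereas that of the run window was 3.7, 4.24 and 4.58.

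Of the 62 sites, 32 (51.6%, exact binomial 95% interval 38.6 to 64.5) were in all 3 lists, against 31.8% of the series. They were 12 of 21 at eve, 12 of 18 at h and 8 of 23 at run. Sites here were also stronger, since 21 of 62 (33.9%) reached a coverage of 500 at some stage, against 14.7% in the series. Among sites of that strength, 18 of 21 (85.7%) were in all 3 lists at these genes and 87.6% in the series. A site missing from a list was not always unbound. Of 39 such entries, 5 lay inside a longer interval of that stage, such as the eve site 1.91 kb upstream, which at cycle 13 shared 1 interval with its neighbour.

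At eve (2R, 5866745 to 5868284 in the dm3 annotation), 10 sites lay upstream, 11 downstream and none inside the gene. The strongest cycle 8 site lay 0.95 kb upstream, at 5865793. Its coverage was 2930 (2840 to 3023), 1885 (1823 to 1948) and 717.9 (678.7 to 758.8), a log2 ratio of -2.03 (-2.12 to -1.94), so that it stood 132 among the 16200 sites at cycle 8 and 1392 at late cycle 14. The promoter site, 3 bp upstream of the start at 5866742, was lower at each step as well. It had 1482 (1418 to 1548), 1235 (1186 to 1286) and 628.1 (591.5 to 666.4), a log2 ratio of -1.24 (-1.35 to -1.13), which was -0.99, just under 2-fold, when scaled by the reads outside sites.

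The stronger sites farther upstream of eve changed by less than 2-fold. The site 1.60 kb upstream (5865146) had 2145, 2084 and 1755 (log2 ratio -0.29, -0.36 to -0.22) and was the strongest of the locus from cycle 13 on. Its neighbour 1.91 kb upstream (5864833), 313 bp away, had 1082, 1483 and 1426 (log2 ratio 0.40, 0.30 to 0.49). The site 3.86 kb upstream (5862883) had 376.4, 715.4 and 557.7 (log2 ratio 0.57, 0.41 to 0.72). With 1 read per position and strand, both of these turned lower (log2 ratios of -0.69 and -0.024), and the sites 1.60 and 0.95 kb upstream came close to each other (-0.96 and -1.27). This count cannot pass 300 at a site. At 1.91 kb it was 205, 296 and 288 and at 3.86 kb 113, 284 and 252, so the lower ratios there are not read as a change of direction. It was 253, 298 and 294 at 1.60 kb and 291, 300 and 274 at 0.95 kb, so the closeness of these 2 sites is not read as a like course. Between the sites 3.86 and 1.91 kb upstream lay a weak site at 2.34 kb, with 128.2, 108.6 and 48.05 (log2 ratio -1.42). This fall was under 2-fold over 300 bp (-0.81) and with 1 read per position and strand (-0.96).

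The far upstream end of the eve window held sites that were listed only after cycle 8. The site 9.81 kb upstream (5856934), the largest rise of the locus, had 27.4 (19.3 to 37.8), 199.3 (179.6 to 220.4) and 263.7 (240.2 to 288.9), a log2 ratio of 3.27 (2.78 to 3.79). All 3 sites more than 5 kb upstream rose, with log2 ratios from 2.22 to 3.27, against 34.3% of all sites of the series. None was in the cycle 8 list, so they entered through the later lists alone and a rise at them was partly built in.

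Downstream of eve, the strongest site lay just past the transcription unit. It was 1.64 kb from the start, at 5868380, and had 1488 (1423 to 1554), 1252 (1202 to 1303) and 1015 (968.7 to 1064), a log2 ratio of -0.55 (-0.64 to -0.46). The site at 4.92 kb (5871663) was the only named downstream site that was higher at the last stage, with 285.3, 516.1 and 537.1 (log2 ratio 0.91, 0.74 to 1.09). Farther on, toward the neighbouring gene TER94, every site had less coverage at late cycle 14 than at cycle 8. The strongest of these, at 7.09 kb (5873833), had 1438, 1089 and 791.7 (log2 ratio -0.86, -0.96 to -0.76).

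Other named sites on this side of eve were weaker and partly merged with their neighbours. The site at 7.40 kb (5874145) had 666.1, 304.2 and 192.8 (log2 ratio -1.79). It lay 312 bp from the stronger site at 7.09 kb, and coverage between them kept 81.3%, 87.3% and 80.1% of the lower of the pair. The site at 7.91 kb (5874659) had 529.0, 556.9 and 344.9 (log2 ratio -0.62). The largest fall by the rule used, at 5.44 kb (5872187), had 437.9, 156.3 and 106.4 (log2 ratio -2.04, -2.29 to -1.80). Only the late cycle 14 list held a midpoint there, and at cycle 8 coverage between it and the next site, 203 bp on, kept 93.7% of the lower, so that this pair was not resolved.

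**Figure D1:**
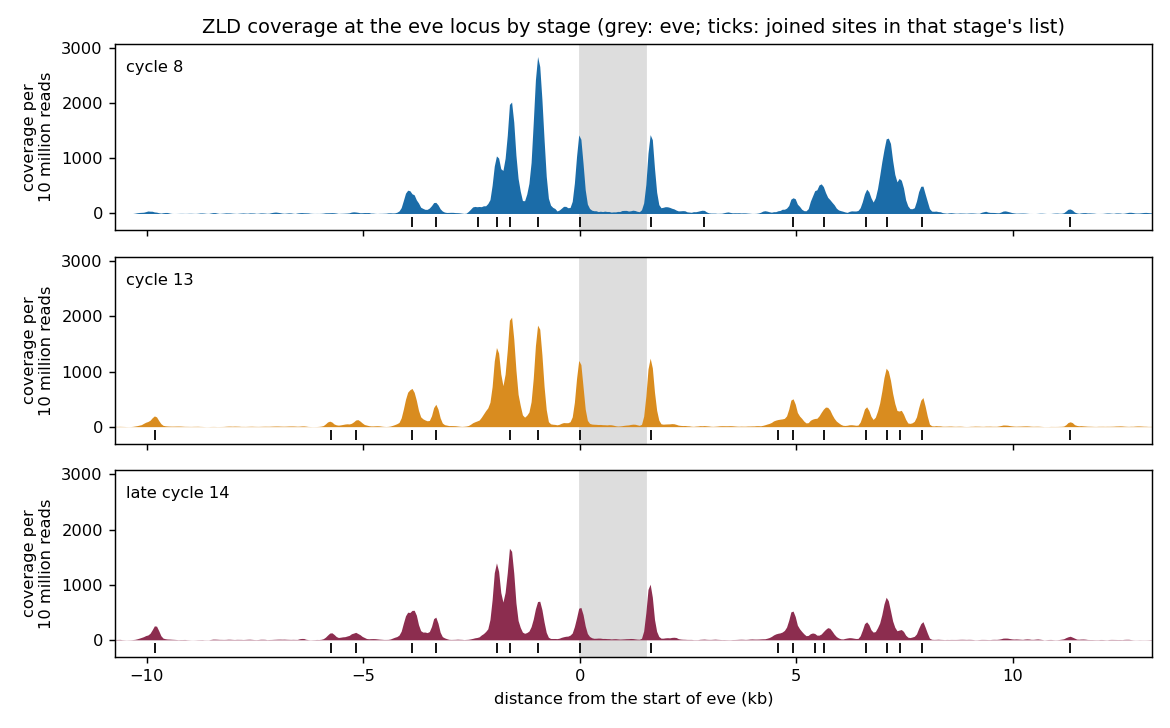
Mean ZLD coverage in 50-bp steps across the eve window, with distance from the start of eve in kb on the horizontal axis and coverage per 10000000 reads on the vertical axis, 1 panel per stage with cycle 8 at the top. Ticks mark the sites in the list of that stage. The peak 0.95 kb upstream is the tallest at cycle 8 (2930 at its centre), whereas the one 1.60 kb upstream is the tallest at late cycle 14 (1755).

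At h (3L, 8668858 to 8672339) the promoter site was the strongest at each stage. It lay 109 bp upstream of the start, at 8668749, and had 4617 (4504 to 4734), 6236 (6123 to 6349) and 5835 (5723 to 5950), a log2 ratio of 0.34 (0.29 to 0.38). It stood 36, 9 and 12 among the 16200 sites and held 32.3%, 36.8% and 38.9% of the coverage summed over the h sites. The direction could not be checked without copies. With 1 read per position and strand, a count that cannot pass 300 at a site, 297, 300 and 300 starts were filled here. Its log2 ratio of -1.17 was thus set by the scaling and not by the site.

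The next strongest pair of h sites lay upstream, 775 bp apart. The site 5.42 kb upstream (8663441) had 3011 (2919 to 3105), 2979 (2902 to 3058) and 3323 (3238 to 3410), a log2 ratio of 0.14 (0.08 to 0.20). This small difference turned negative at the mean of the joined midpoints (-0.01) and with 1 read per position and strand (-1.11), a count near its limit there. The site 4.64 kb upstream (8664216) had 3192 (3097 to 3289), 2822 (2747 to 2899) and 2044 (1978 to 2113), a log2 ratio of -0.64 (-0.71 to -0.58). Closer to the gene, the site 3.43 kb upstream (8665425) gave the largest fall of the locus. It had 625.3 (583.9 to 669.0), 314.8 (290.0 to 341.1) and 90.4 (76.8 to 105.6), a log2 ratio of -2.79 (-3.04 to -2.54), and was still in all 3 lists.

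Upstream of this, 8 to 13 kb from the start of h, 8 weaker sites formed a group whose bounds were chosen after the values had been seen. Their coverage ranged from 54.8 to 236.4 at cycle 8, and at the last stage from 44.6 to 515.4. The site 10.92 kb upstream (8657938), the largest rise at h, had 149.7, 498.1 and 474.2 (log2 ratio 1.66, 1.44 to 1.89). The site 9.37 kb upstream (8659486) had 209.7, 489.1 and 515.4 (log2 ratio 1.3). Both were under 2-fold with 1 read per position and strand (0.98 and 0.93). That count, at most 300 at a site, was 54, 258 and 242 at 10.92 kb and 59, 267 and 254 at 9.37 kb. The smaller ratios are therefore not read as a loss of these rises. Of the other 6 sites in this group, 1 was lower by over 2-fold (log2 ratio -1.14, but -0.43 over 300 bp) and the rest changed by less.

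The remaining strong h site lay at the upstream end of the window, 21.99 kb from h and nearest the start of CG6486. It had 972.8, 1694 and 1352 (log2 ratio 0.47, 0.38 to 0.57), and with 1 read per position and strand its log2 ratio was -0.64. That count was 204, 298 and 297 of at most 300, so the sign is not read as a change of direction. Only 1 of the 18 sites lay inside h, at 1.32 kb, with 61.5, 83.7 and 74.9.

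**Figure D2:**
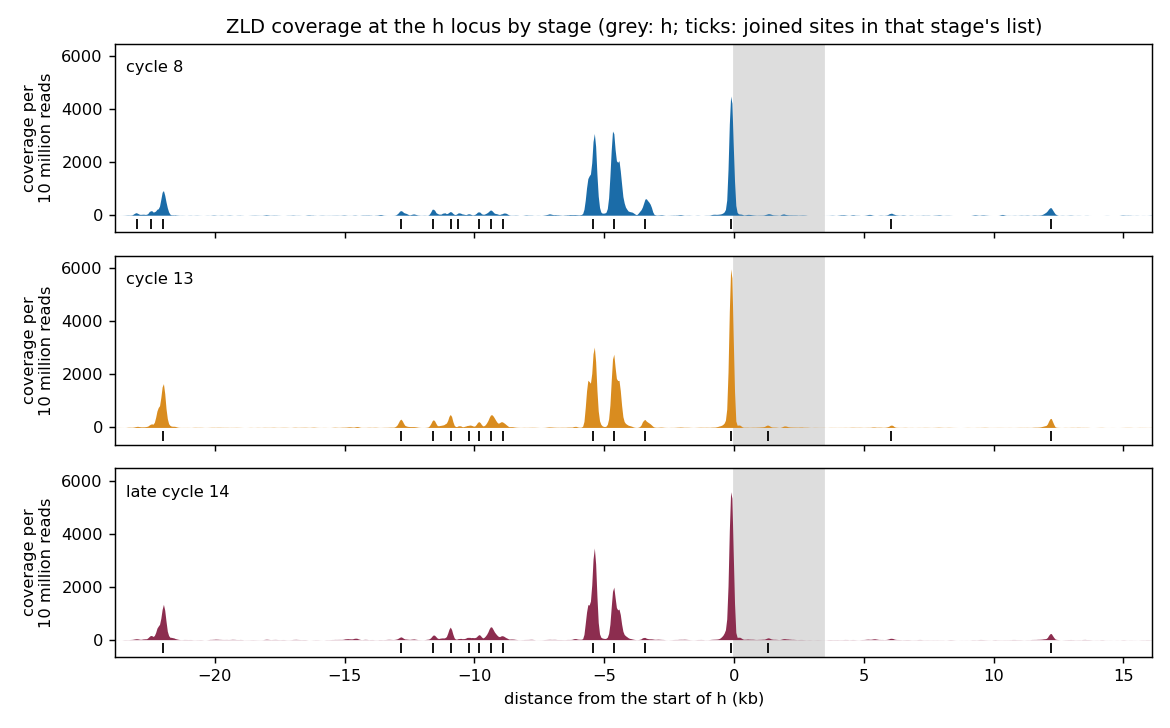
Mean ZLD coverage in 50-bp steps across the h window by distance from the start of h in kb, 1 panel per stage with cycle 8 at the top, in coverage per 10000000 reads. The promoter peak is the tallest in each panel (4617, 6236 and 5835 at its centre), and the small peak 3.43 kb upstream, 625.3 at cycle 8, is 90.4 at late cycle 14.

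At run (X, 20565467 to 20568353) the promoter site and the strong site upstream of it differed in course when all reads were counted. The count without copies was near its limit of 300 at both and could not decide this. The promoter site lay 178 bp upstream of the start, at 20565289, and had 3241 (3146 to 3338), 3086 (3007 to 3167) and 3028 (2947 to 3111), a log2 ratio of -0.10 (-0.16 to -0.04). The site 2.93 kb upstream (20562534) had 3508 (3408 to 3609), 1664 (1607 to 1724) and 911.8 (867.6 to 957.7), a log2 ratio of -1.94 (-2.03 to -1.86). It held 31.0%, 15.4% and 9.55% of the coverage summed over the run sites, whereas the promoter site held 28.6%, 28.5% and 31.7%. With 1 read per position and strand the log2 ratio was -1.14 (-1.38 to -0.90) at the promoter, where 287, 299 and 296 of at most 300 starts were filled. It was -1.16 (-1.41 to -0.91) at 2.93 kb, where 259, 278 and 263 were filled. A count so close to its limit cannot tell their courses apart. The promoter site was the higher of the pair at cycle 8 when coverage was read at the mean of the joined midpoints or with 1 read per position and strand.

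All 4 run sites from 500 to 5000 bp upstream fell, against 39.8% of all sites of the series, with log2 ratios from -2.76 to -1.48. The one 0.73 kb upstream was under 2-fold over 300 bp (-0.97). The largest fall of the locus, 3.78 kb upstream (20561686), had 254.9 (228.7 to 283.3), 112.3 (97.7 to 128.5) and 37.8 (29.2 to 48.0), and was not in the late cycle 14 list. Nearer the start, a site 0.44 kb upstream (20565028) was listed at late cycle 14 only and had 337.1, 475.3 and 639.5 (log2 ratio 0.92). It was a shoulder of the promoter peak, 261 bp from its summit, and coverage between them kept 99.6%, 93.4% and 88.2% of its own height. The 500 bp bound left it out of the group that fell.

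Away from the promoter, the site 19.18 kb downstream of run (20584644) had 1486, 1529 and 1215 (log2 ratio -0.29, -0.38 to -0.20). The site 14.31 kb upstream (20551155), nearest the start of hydra, had 637.9, 1060 and 1036 (log2 ratio 0.70, 0.58 to 0.82). Counted as 1 read per position and strand, its log2 ratio was -0.34. That count was 159, 294 and 285 of at most 300, so the sign is not read as a change of direction.

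The ends of the run window carried weak sites that rose. All 5 sites more than 25 kb upstream did so, against 34.3% of all sites of the series. Their coverages were from 6.67 to 113.4 at cycle 8 and from 63.5 to 299.2 at late cycle 14. Only the site 29.09 kb upstream was in the cycle 8 list. The others entered through the later lists alone, so that a rise at them was partly built in. The 3 sites more than 20 kb downstream rose too, with coverages from 20.01 to 28.9 at cycle 8 and from 89.8 to 162.5 at late cycle 14. None of these 3 was in the cycle 8 list either. Those at 23.11 and 23.21 kb lay 100 bp apart, and coverage between them kept 81.5%, 100% and 92.8% of the lower, so that this pair was not resolved. The bounds of both groups were also set after the values had been seen. The largest rise at the 3 loci was 30.70 kb upstream of run, at 20534768. It had 6.67 (3.05 to 12.7), from 9 reads at 4 distinct positions, then 221.5 (200.8 to 243.8) and 250.0 (227.1 to 274.6), a log2 ratio of 5.23 (4.29 to 6.37). Which gene such distant sites serve was not tested.

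**Figure D3:**
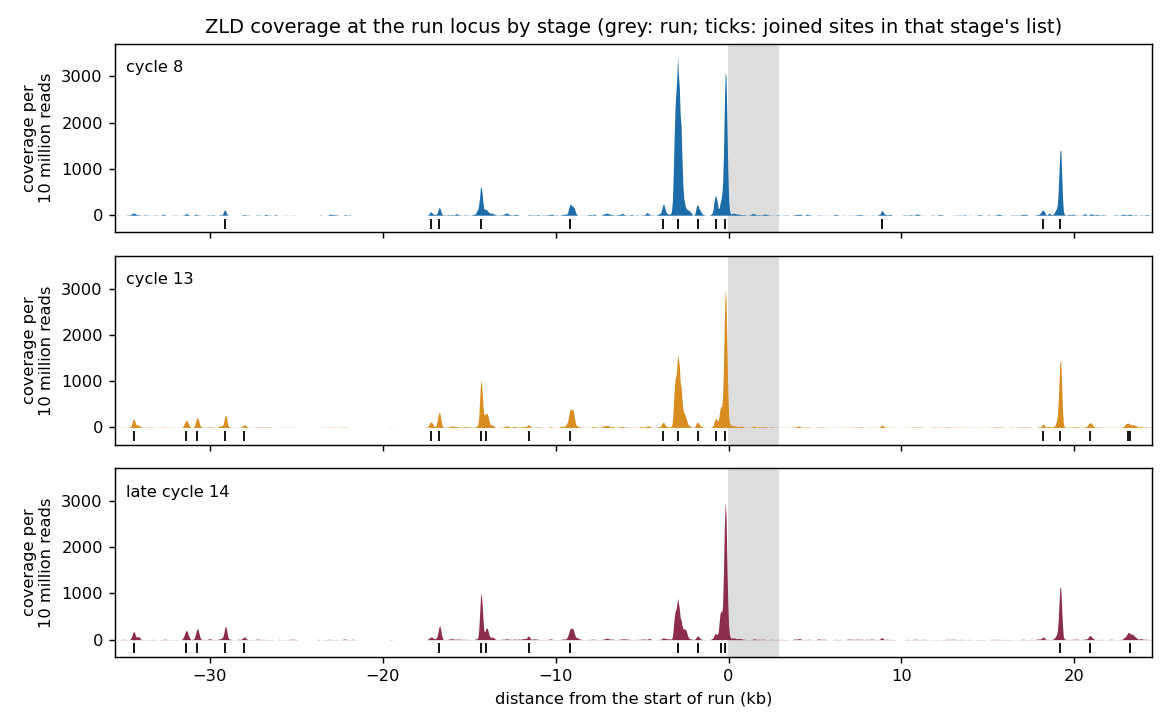
Mean ZLD coverage in 50-bp steps across the run window by distance from the start of run in kb, 1 panel per stage with cycle 8 at the top, in coverage per 10000000 reads. All reads are counted, copies included. The promoter peak has 3241, 3086 and 3028 at its centre and the peak 2.93 kb upstream 3508, 1664 and 911.8. With 1 read per position and strand their log2 ratios were -1.14 and -1.16. That count was near its upper limit at both peaks and cannot tell their courses apart.

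With all reads counted, the promoter sites of the 3 genes had log2 ratios of -1.24 at eve, -0.10 at run and 0.34 at h. With 1 read per position and strand these were -1.13, -1.14 and -1.17. This count was at or near its limit of 300 at h and run, and at eve it was 246, 296 and 255. It therefore cannot tell whether the promoters differed in course. With all reads counted, their order was the same at each stage, h above run above eve. Scaling by the reads outside sites added 0.25 to every log2 ratio and the median of ratios added 0.20, after which the run promoter was slightly higher at late cycle 14 (0.15 and 0.10) and the eve promoter had -0.99 and -1.04.

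**Figure D4:**
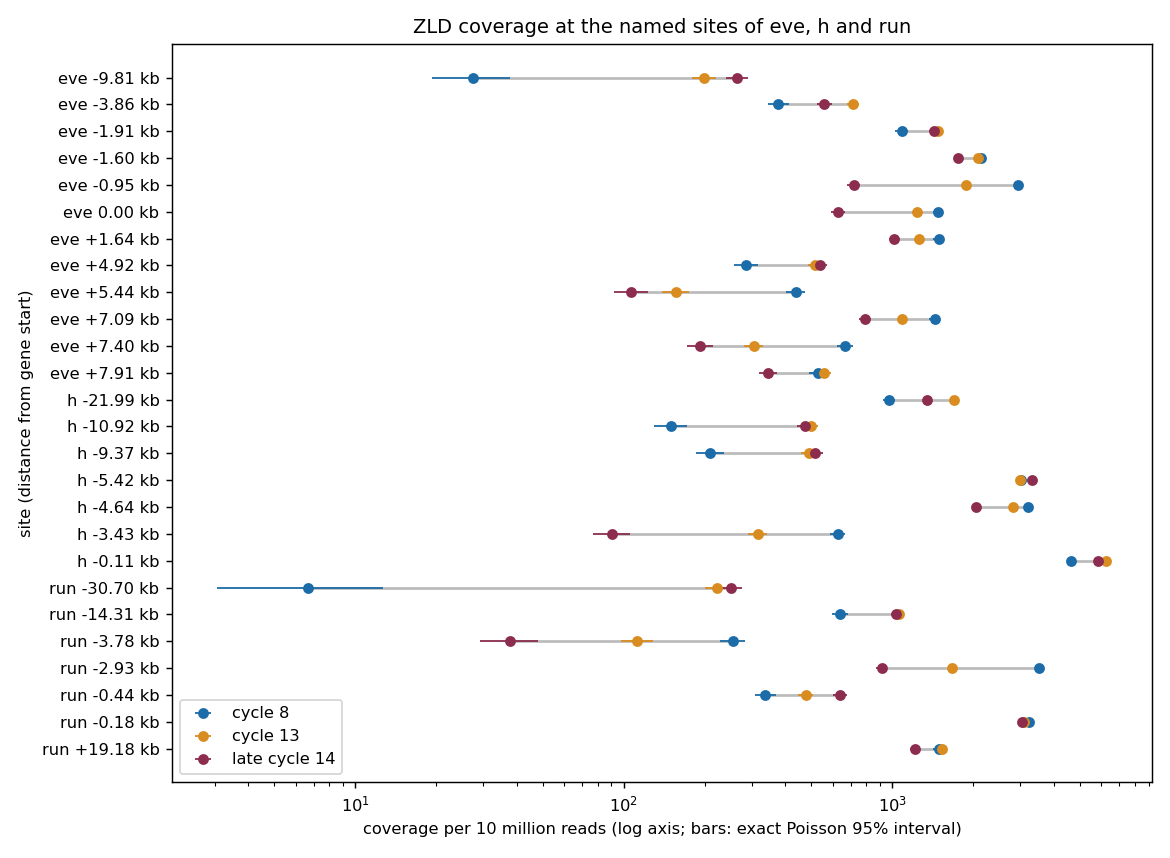
Coverage per 10000000 reads (log axis) at the 26 named sites, 1 row per site with its distance from the gene start in kb, at cycle 8 (blue), cycle 13 (orange) and late cycle 14 (dark red), with exact Poisson 95% intervals as bars and a grey line from the lowest to the highest stage. The stages nearly coincide at run -0.18 kb and h -5.42 kb and are spread widest at run -30.70 kb.

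Summed over its sites, eve had coverages of 14407, 13182 and 9789 (log2 ratio -0.56). Those of h were 14312, 16962 and 14995 (0.07), and those of run 11315, 10825 and 9545 (-0.25). The sum at eve was lower at late cycle 14 under each of the 5 alternatives tried, with log2 ratios from -0.62 to -0.31. Among these, the count of 1 read per position and strand (-0.61) was near its upper limit at the strongest eve sites. Its lower sum is therefore not read as a loss, and the range is the same without it. The sums at h and run changed sign with the processing and are not read as a change.

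Among the 62 sites, 15 (24.2%) fell between the first and last stage, against 39.8% of all sites of the series, and 16 (25.8%) rose, against 34.3%. Falls numbered 7 at eve, 3 at h and 5 at run, and rises 5, 2 and 9. Part of these calls follows from how sites entered. Of the 18 sites not in the cycle 8 list 12 rose and 2 fell, and of the 12 not in the late cycle 14 list 1 rose and 7 fell. For the 21 sites with a coverage of 500 or more at some stage, 5 (23.8%) fell and 1 (4.76%) rose, whereas of the 2379 such sites of the series 19.7% fell and 46.6% rose. The 21 include sites partly merged with a stronger peak, such as eve +7.40 kb, which fell, and run -0.44 kb. Such sites were not counted apart here or in the series. Without copies, at 1 read per position and strand, 10 of the 21 fell and 0 rose. The falls added by that count lay mostly at sites where it was near its upper limit. They are therefore not read as losses, and no such count is given for the 2379. The median log2 ratio of these 21 sites was -0.29, against 0.82 for the 2379. The 36 sites that are not named ranged from 14.1 to 482.3 in cycle 8 coverage, and 12 of them rose and 8 fell.

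Rises were found mostly at the first step, here and in the whole series alike. Between cycle 8 and cycle 13, 19 of 62 sites (30.6%) rose and 9 (14.5%) fell, against 32.1% and 26.4% in the series. Between cycle 13 and late cycle 14, 1 site (1.61%) rose and 7 (11.3%) fell, against 4.1% and 25.8%. Counting changes of any size, coverage was lower at each step at 22 of 62 sites (35.5%, against 42.3% of the series), 11 of them at eve, and higher at each step at 15 (24.2%, against 35.7%).

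Near and far sites were counted apart, with the shares of the whole series, 39.8% that fell and 34.3% that rose, as background. Within 5000 bp of eve, h or run lay 24 sites, of which 11 (45.8%) fell and 2 (8.33%) rose, with a median log2 ratio of -0.61. Of the 38 sites farther away, 4 (10.5%) fell and 14 (36.8%) rose, with a median of 0.64. The share of near sites that fell and that of far sites that rose were thus close to the background, and the near rises and far falls lay below it. The genes were not alike. At eve 6 of 13 near sites fell and 2 rose, and of 8 far sites 1 fell and 3 rose. At run 4 of 6 near sites fell and none rose, and of 17 far sites 1 fell and 9 rose, so that run gave most of the far rises. These 9 include the unresolved pair at 23.11 and 23.21 kb. At h 1 of 5 near sites fell and none rose, and of 13 far sites 2 fell and 2 rose. Strength differed between near and far sites as well, with median coverages of 445.7, 446.5 and 484.2 for the near sites and 116, 213.6 and 188.8 for the far ones, and its part in these counts was not tested. The median over all 16200 sites was -0.20.

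**Figure D5:**
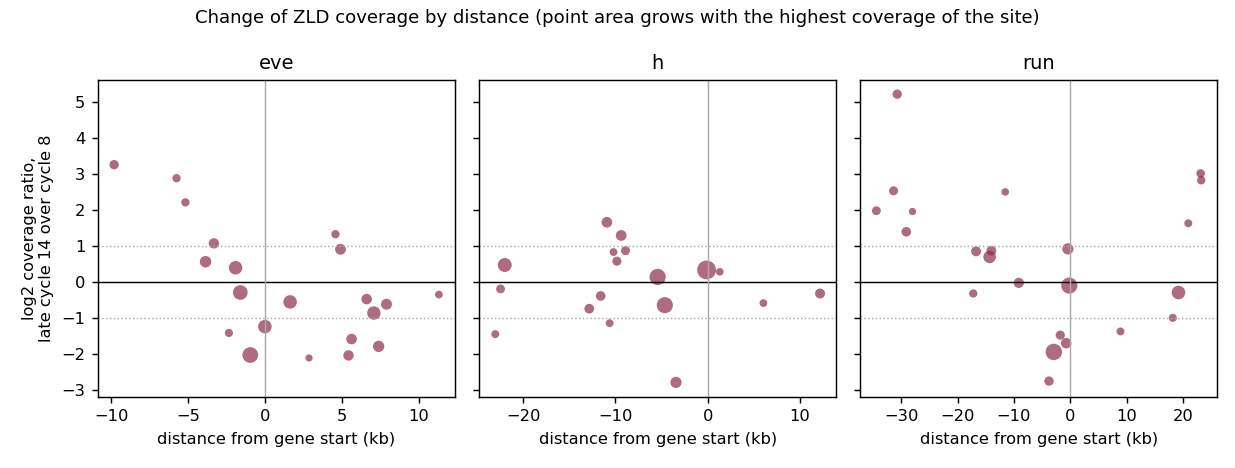
Log2 ratio of coverage (late cycle 14 over cycle 8) against distance from the start of eve, h and run in kb, 1 point per site and larger where the highest coverage of the site was larger, with dotted lines at 2-fold. Points more than 5 kb upstream of eve and more than 25 kb upstream of run lie above the upper dotted line, and the 4 run points from 500 to 5000 bp upstream lie below the lower one.

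The same was measured within 5000 bp of the later pair-rule genes ftz, odd, prd, slp1, slp2 and opa, which act after the primary ones, and of the gap genes hb, Kr, kni, gt and tll, whose products position the early stripes. Over all sites of the series, 31.8% were in all 3 lists, 39.8% fell and 34.3% rose. At eve, h and run 14 of 24 (58.3%) were in all 3 lists. At the later pair-rule genes 29 of 50 sites (58%) were in all 3 lists, 13 (26%) fell and 13 (26%) rose, and the median log2 ratio was -0.02. At the gap genes 19 of 38 (50%) were in all 3 lists, 8 (21.1%) fell and 11 (28.9%) rose, and the median was -0.10. Medians of single genes spread from -1.12 at opa to 1.46 at Kr, against -0.55 at eve, -0.58 at h and -1.59 at run. A negative median was thus common to the 3 primary genes and was also found at odd, opa, kni, gt and tll.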

How the data were processed

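ZLD ChIP-seq reads of 25 bp were mapped by the authors to dm3 (BDGP Release 5) with Bowtie 0.12.5, extended to 150 bp and scaled to 10000000 per library. The deposited peak lists hold Grizzly Peak intervals with heights as a coverage signal, called in each library. The deposited reads include copies. Here each site was centred where the scaled coverage of all stages together was highest, searching 75 bp past its midpoints, and read numbers below 3 counted as 3 in log2 ratios. Python 3.11.15, numpy 2.4.6 and scipy 1.17.1 were used, with functions tested on simulated data. Gene positions and site labels came from the study's supplementary annotation. Sites were named if coverage reached 500, if they lay from 500 bp before to 150 bp after a start, or as the largest rise and fall of a gene among sites whose higher stage reached the median over all sites (132.7). Windows and lists were chosen with earlier results of these data known. Joining distance, peak position, peak height, read counting, scaling and fold threshold were varied. Sequences and motifs were not analysed here.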

Additional observations from a re-analysis of the deposited data

How the results depend on the processing

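Counts of sites, and of sites in all 3 lists, stayed within 1.5-fold at 50 and 300 bp joining (74 and 56 sites), with peaks placed at the highest coverage, with higher peaks only, and, in a setting added once the data had been seen, with a site present where an interval covered its centre (34 in every list). With 1 read per position and strand, strong sites that rose numbered 0 and that fell 10, near sites that rose numbered 1, and the summed log2 ratios were -0.61 at eve, -0.53 at h and -0.17 at run. Single sites turned negative there, at eve -1.91 kb (-0.69) and -3.86 kb (-0.024), h -0.11 kb (-1.17), -5.42 kb (-1.11) and -21.99 kb (-0.64) and run -14.31 kb (-0.34). Of the named sites, 2 rises were lost (h -10.92 kb, 0.98, and -9.37 kb, 0.93) and 5 falls gained, at eve +7.09 kb (-1.02), h -5.42 kb, -4.64 kb (-1.14) and -0.11 kb and run -0.18 kb (-1.14). That count cannot pass 300 at a site, so the lower ratios and added falls it gave at nearly filled sites are not read as changes. Scaling by reads outside sites gave 3 strong and 4 near sites that rose and sums of -0.31 at eve, 0.31 at h and 0.0012 at run, with 0.15 at the run promoter and -0.99 at the eve promoter, whose call was lost. The median of ratios gave 3 and 4 sites, -0.36, 0.26 and -0.048, with 0.10 at the run promoter. Reads over 300 bp gave 1 near site that rose and sums of -0.62, -0.043 and -0.33, and made h -4.64 kb the strongest h site at cycle 8. Reading at the mean midpoint gave 2 strong sites that rose, -0.17 for the run sum and -0.0070 at h -5.42 kb. At 1.5-fold, 4 strong sites rose and 8 fell, 4 near sites rose and 8 far sites fell. The causes were not tested. No paired analysis was possible because each stage had 1 library.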
